A study of Rattus norvegicus with 4 samples.

Results

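The ribosomal protein genes of the rat were followed through single-cell RNA libraries of Lewis rat liver, in cells other than T cells. Every gene symbol that begins with Rps or Rpl and a digit, with Rplp and a digit, or with Rpsa was taken, and the Rps6k kinases were left out. The rule matched 90 symbols, held by 97 features, of the 22118 symbols and 22250 features in the files. The title of the series names liver-resident T cells as the subject of the study, and the T-like cells are left out here. The series has 4 libraries with 1 library per group. The naive library (labelled Nave) came from a naive control liver, the CS library from liver kept in cold storage for 4 h at 4 °C, and the NEVLP2 library from liver perfused for 4 h at 37 °C. The NEVLPcty library came from liver perfused in the same way with the cytokines IL-10 and TGF-β in the perfusate. The reading of CS and NEVLPcty rests on the design text of the series, and the digit in NEVLP2 is not explained in the labels. The perfusate common to both perfused groups was a culture medium (William's E) with leukoreduced red blood cells of Lewis rats and human albumin, to which insulin, hydrocortisone, heparin and papaverine were added. The sources used here do not give age, sex, the number of animals per library or the way the cells were isolated.

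Ribosomal proteins are the protein components of the small (Rps) and large (Rpl) ribosomal subunits. The acidic proteins of the P stalk (Rplp) recruit elongation factors to the large subunit. Their mRNAs are among the most abundant of a cell, and nearly all of them carry a 5′ terminal oligopyrimidine motif (TOP): a C at the cap followed by an unbroken run of C and T, through which the kinase complex mTORC1 and the RNA-binding protein Larp1 control their translation and stability. Some ribosomal proteins have paralogs that can take their place on the ribosome, and mammalian genomes hold many retroposed copies of these genes.

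The annotated start regions of many members hold a run of C and T, and a minority have it right at the start in the TOP form. RefSeq promoters of the GRCr8 assembly were matched by symbol for 67 of the 90 members. They are printed from 20 bases before the annotated start to 19 bases past it, with the start at base 21, and capitals mark unbroken runs of 5 or more C or T on the gene's strand. The first 4 lines are abundant or class-dependent members with the run at the start, the next 3 are members that stood lower in the stored and perfused libraries than in the naive one, and the last 4 are paralogs or copies whose values differed between classes or libraries.
Rplp0, chr12:46718371-46718410, minus strand: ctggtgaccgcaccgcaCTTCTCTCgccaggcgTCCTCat
Rpl19, chr10:83519044-83519083, plus strand: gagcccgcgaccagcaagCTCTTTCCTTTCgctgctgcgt
Rpl10, chrX:157205830-157205869, plus strand: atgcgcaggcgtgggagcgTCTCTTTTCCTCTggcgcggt
Rpl31, chr9:49143091-49143130, plus strand: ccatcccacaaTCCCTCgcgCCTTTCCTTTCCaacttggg
Rpl39, chrX:121195877-121195916, minus strand: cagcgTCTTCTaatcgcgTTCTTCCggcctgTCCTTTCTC
Rps21, chr3:187724018-187724057, plus strand: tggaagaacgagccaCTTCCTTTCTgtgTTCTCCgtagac
Rpl26, chr10:54109672-54109711, plus strand: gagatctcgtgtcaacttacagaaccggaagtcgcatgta
Rps27l, chr8:76443638-76443677, plus strand: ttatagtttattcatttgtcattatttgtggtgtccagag
Rpl22l1, chr2:113683176-113683215, plus strand: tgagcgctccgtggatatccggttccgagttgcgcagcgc
Rps4y2, chr4:183000893-183000932, plus strand: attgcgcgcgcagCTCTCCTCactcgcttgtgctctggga
Rpl30l1, chr13:91813965-91814004, plus strand: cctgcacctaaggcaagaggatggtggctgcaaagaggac
On the gene's strand, a C at the annotated start with 4 or more C or T right after it was found in 20 of the 68 promoters of members, or 29.4%. The share was 34.5% (20 of 58) for cytosolic ribosomal proteins of a fixed list, 0 of 10 for the other members, and 2.63% (881 of 33469) for all promoters of the table. A run of 7 or more C or T anywhere in the 40-base window was found in 75% of the members' promoters and in 23.7% of all promoters. Both patterns overlap, since a long run at the start counts under each. Where the run is absent, as in the window of Rpl26, these letters are not in the window around this annotated start.

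The 4 libraries held 3920 to 11763 barcodes and 25609611 to 72271060 UMIs (unique molecular identifiers, each 1 counted transcript), with medians of 3459 to 5313 UMIs per barcode. After filters, 35361 cells were kept, and 34568 of them lay outside the single T-like cluster. Clusters were made without the ribosomal protein genes, and 23 of 31 were named by marker lists, each as X-like; a class is the cells of 1 name. Named cells were 81.1% and 75.5% of the non-T cells of naive and CS, and 43.3% and 53.6% of those of NEVLP2 and NEVLPcty. The naive library had 13.85% of barcodes over the mitochondrial maximum of 20%, against 1.105% to 4.283% in the others. A doublet caller marked 0 cells in NEVLPcty and 6 in naive, so doublets remain there. Of the barcodes, 129 occurred in more than 1 library. With 1 library per group, no difference has a replicate check, the treatment and the library cannot be told apart, and every interval below covers counting error only.

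Of the 90 members, 85 had at least 50 UMIs over all non-T cells. Together they held 20145821 UMIs. The 43 large-subunit symbols took 52.5% of these, the 27 small-subunit symbols 39.4%, the 2 P stalk symbols 3.92%, the 8 paralogs 1.24%, the 9 copies or pseudogenes 2.85%, and Rps19bp1, which encodes a protein that binds the ribosomal protein S19 and is no ribosomal protein itself, 0.088%. The 6 members with most UMIs took 19.0% of the total. They included Rplp0 (788466 UMIs), the base of the P stalk, Rpl19 (641844), Rpl41 (624823), Rps2 (598802) and Rpl10 (584948). These are levels per gene and not per length, since no transcript lengths were used.

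At the other end, Rpl7a, Rpl8, Rpl9 and Rpl38 were listed at 0 in every library. For Rpl8, the limit that a count of 0 allows, taken as 3 counts of the library's total, was 0.152 CPM (UMIs of the gene per 1000000 UMIs) in the naive library and 0.0423 to 0.0485 CPM in the others. Rpl35a (92 UMIs), Rplp2 (187), Rps6 (199) and Rps29 (323) were near 0 as well. Each of these encodes a core protein of the ribosome. Rps7, Rps9, Rps14, Rps26 and Rplp1 were not matched under those symbols and are not analysed here, while Rps9l1, listed as a copy, had 437438 UMIs. Reads of near-identical copies can be split between features or dropped at counting, so the low members and all copies are uncertain as levels of single genes.

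Over all non-T cells, ribosomal protein genes made up 13.33% of UMIs in the naive library, with a 95% exact binomial interval of 13.32% to 13.35%. CS (9.143%), NEVLP2 (9.187%) and NEVLPcty (8.566%) were lower and close to each other. These totals mix classes whose numbers differed widely between the libraries: hepatocyte-like cells were 37.7% of non-T cells in naive and 6.735% to 9.895% in the others. The shares were therefore read within classes.

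B-like cells stood at the top in all 4 libraries. Ribosomal protein genes took 24.8% of their UMIs in the naive library, 24.6% in CS, 23.6% in NEVLP2 and 24.2% for NEVLPcty. Plasmacytoid dendritic-like cells, the interferon-producing dendritic cells, came second in each library, with 19.97%, 17.1%, 17.0% and 18.7% in the order naive, CS, NEVLP2 and NEVLPcty. NK-like cells had 19.1%, 15.4%, 14.4% and 13.7%. Conventional dendritic-like cells had 14.4%, 12.2%, 11.8% and 14.3%. Proliferating-like cells reached 10.9%, 12.1% and 10.38% in CS, NEVLP2 and NEVLPcty. The value of NEVLPcty was 7.22% as the median over cells and 5.919% when that library was clustered alone. All of these are under the share of the B-like, plasmacytoid dendritic-like and NK-like cells of each of these libraries.

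Hepatocyte-like, endothelial-like and stellate or fibroblast-like cells had lower shares than the lymphoid and dendritic classes, while Kupffer-like and cholangiocyte-like cells overlapped with the latter. Kupffer-like cells, the macrophages of the sinusoids, had 11.9% in naive, 9.55% in CS and 13.3% in NEVLPcty, where only 31 cells carried the name. Cholangiocyte-like cells, numerous enough only in NEVLP2, had 11.82%. Hepatocyte-like cells, in the order naive, CS, NEVLP2 and NEVLPcty, had 5.16%, 3.82%, 6.21% and 7.55%. Endothelial-like cells had 4.83%, 5.28%, 5.97% and 6.45%, and stellate or fibroblast-like cells had 5.97%, 6.39% and 6.64% in CS, NEVLP2 and NEVLPcty. Neutrophil-like cells had 4.14% in naive and 2.098% in NEVLP2, and erythroid-like cells, which were numerous enough only in naive, had 0.567%. From B-like to erythroid-like cells, the naive library thus spanned a wider range of shares than any class did between libraries. The ratio of large-subunit to small-subunit UMIs varied little in comparison, from 1.331 in naive NK-like cells to 1.604 in erythroid-like cells.

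**Figure D1:**
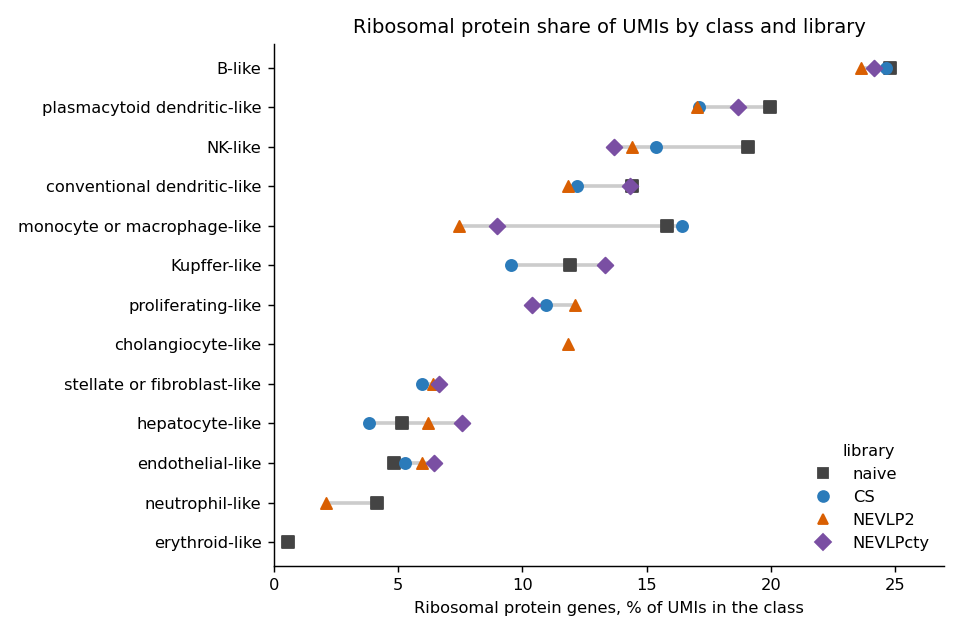
Ribosomal protein genes as a percentage of all UMIs (horizontal axis) in each marker-named class (rows); each symbol is 1 library and each grey line spans the libraries of a class. B-like cells lie between 23.6% and 24.8% in all 4 libraries, while monocyte or macrophage-like cells lie at 15.8% and 16.4% in naive and CS and at 7.45% and 8.97% in NEVLP2 and NEVLPcty.

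Depth varied between the libraries of a class, and the share per cell was also taken after each cell was thinned to 1000 UMIs. Thinning leaves the expected share of a cell unchanged and leaves out cells under 1000 UMIs. It therefore cannot show whether depth affected the shares. The median share of B-like cells was then 24.4%, 23.9%, 22.9% and 24.4% in the same order of libraries. NK-like cells, whose median depth was 8677.5 UMIs in naive and 2434 to 3719 in the other libraries, had thinned medians of 18.1%, 13.3%, 12.4% and 12.8%. Thinning left out 10, 53, 115 and 75 of the NK-like cells, respectively, as too shallow. Without thinning, the median share per NK-like cell was 17.9%, 12.4%, 8.64% and 11.8%. Hepatocyte marker genes made up 0.0488%, 0.0779%, 0.208% and 0.09% of the UMIs of NK-like cells, and their part in these shares was not tested.

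Cold-stored liver had a lower ribosomal protein share than naive liver in 6 of 8 classes. The ratio of the shares, CS over naive, was 0.739 (95% interval 0.734 to 0.745) in hepatocyte-like cells, 0.801 (0.798 to 0.805) in Kupffer-like cells and 0.806 (0.802 to 0.811) in NK-like cells. It was 0.846 in conventional and 0.857 in plasmacytoid dendritic-like cells, and 0.994 (0.989 to 0.999) in B-like cells. Monocyte or macrophage-like cells (1.039) and endothelial-like cells (1.094, with only 28 naive cells) were on the other side. The monocyte or macrophage-like value turned within clusters, where CS was under naive in both: 11.97% against 12.61% in cluster 22, which held most of these naive cells, and 18.01% against 18.82% in cluster 24, which held most of those of CS. The median log2 ratio over the 8 classes was -0.23, and it was -0.0997 over the 4 classes left when only cells of 2000 to 8000 UMIs were used. Hepatocyte-like cells had 4.93% mitochondrially encoded UMIs in naive and 1.499% in CS. Leaving these UMIs out of the denominator moved no share of any class by more than 1.09-fold.

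The members did not move as a block between naive and CS. In NK-like cells, 55 of the 74 measured members were lower in CS, against 35.5% of all genes, and in hepatocyte-like cells 64 of 73, against 36.8%. Over the members of 1 class, the log2 ratios had an interquartile range with a median of 0.77 over the 8 classes, against 0.24 for NEVLP2 over CS. A subset of the lower members was shared by all classes: of 71 members measured in all 8 classes, 25 were lower in CS in every class, or 35.2%, against 5.3% of the 3286 genes measured in all of them. They included Rpl21, Rpl26, Rpl31, Rpl32, Rpl34, Rpl36a, Rpl37, Rpl37a, Rpl39 and Rpl41 of the large subunit and Rps13, Rps21, Rps23, Rps24, Rps25, Rps27 and Rps28 of the small subunit. Another 5 were higher in every class, or 7.04%, against 9.37% of all genes, and these were Rplp0, Rpl19, Rpl29, Rpl30 and the copy Rps4x-ps9.

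The rule asked for a 2-fold or larger difference from the members' median in at least 3 classes. By it, 5 of the 74 members tested were lower in CS and 2 were higher. Among all genes, the same rule gave 0.551% lower and 2.82% higher, so the 2 higher members made a share near that of all genes. All genes were also set against the members' median and not against their own. These percentages therefore depend on the distance between both medians, here and wherever the rule is used below. The members lower than the rest were Rpl26, Rpl39, Rps21, Rps25 and Rpl30l1, and the higher ones were Rps18l1 and Rps4x-ps9.

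Rpl26 encodes a large-subunit protein close to the exit of the peptide tunnel. Its levels in B-like cells, again in the order naive, CS, NEVLP2 and NEVLPcty, were 4626, 1848, 1632 and 1865 CPM. NK-like cells had 3059, 1036, 952 and 1055 CPM, and hepatocyte-like cells 843, 266, 398 and 552 CPM. The naive library was the high one in each of these classes. The other 3 lay close together in B-like and NK-like cells and were spread out in hepatocyte-like cells. Across the 8 classes, Rpl26 was 2.11-fold to 3.17-fold lower in CS than in naive, and it differed from the members' median in all 8.

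Rpl39, one of the smallest large-subunit proteins, lines the same tunnel. B-like cells had 1014 CPM in naive and 388, 324 and 454 CPM in CS, NEVLP2 and NEVLPcty. NK-like cells had 754, 184, 206 and 184 CPM, so that the naive library again stood apart from the others. The fold difference between naive and CS ran from 2.002 to 4.11 over the 8 classes.

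Rps21 and Rps25 showed the same arrangement in the small subunit. Rps21 was at 2683 CPM in naive B-like cells and at 1244, 1230 and 1319 CPM in CS, NEVLP2 and NEVLPcty, and it was 1.94-fold to 2.78-fold lower in CS over the 8 classes. Rps25, which some viral and cellular mRNAs need for cap-independent initiation, was at 1257, 531, 495 and 568 CPM in B-like cells. Its fold difference ran from 1.71 in endothelial-like cells to 2.84. The most abundant member of the lower group was Rpl41, the smallest ribosomal protein, with 9240 CPM in naive B-like cells and 5411, 5612 and 6363 in CS, NEVLP2 and NEVLPcty.

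Rplp0, the scaffold of the P stalk, went the other way. It was at 6562 CPM in naive B-like cells and at 9065, 10037 and 9283 CPM in CS, NEVLP2 and NEVLPcty. In NK-like cells the 4 libraries lay closer, at 4230, 4437, 4967 and 3778 CPM, and NEVLPcty was under naive. Rpl19 was at 5678, 7922, 7473 and 7117 CPM in B-like cells. Over the 8 classes, Rplp0 was 1.016-fold to 1.402-fold higher in CS than in naive, and Rpl19 1.062-fold to 1.473-fold.

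**Figure D2:**
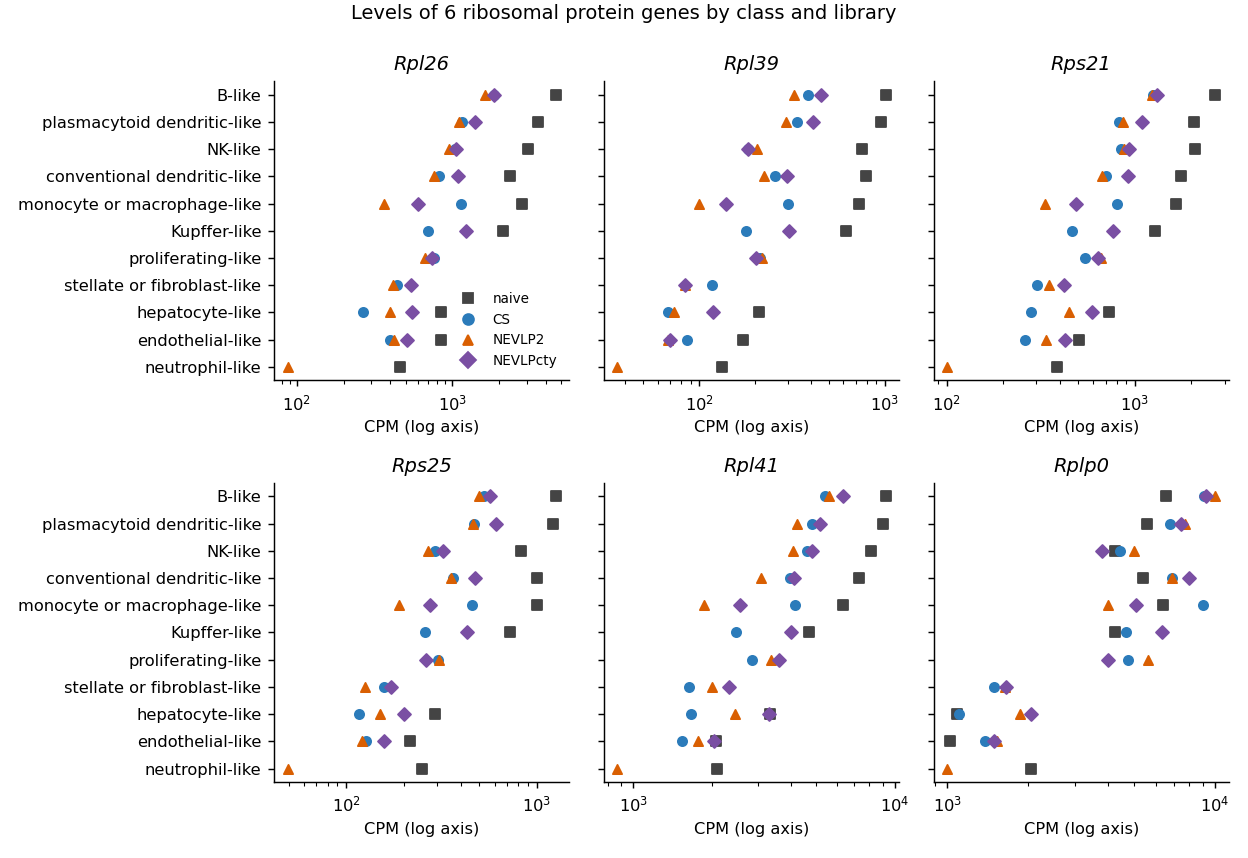
Levels of 6 ribosomal protein genes in CPM of the pooled UMIs of a class (logarithmic horizontal axis) by class (rows); each symbol is 1 library. For Rpl26, Rpl39, Rps21 and Rps25 the naive squares lie to the right of CS in each class that both libraries have, while for Rplp0 the naive square lies to the left of CS in those classes.

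The copies gave the most extreme ratios. Rpl30l1, a copy of the large-subunit gene Rpl30, had 949 counts in the naive library (48.0 CPM, interval 45.0 to 51.2) and 22, 18 and 14 counts in CS, NEVLP2 and NEVLPcty (0.349, 0.291 and 0.198 CPM). Monocyte or macrophage-like cells held 343 of the naive counts, against 5 in CS, and the ratio was 51.6-fold lower (21.9 to 160). In NK-like cells 119 counts stood against 1, a ratio of 115 with an interval of 20.2 to 4562. The parent Rpl30 did not share this: it was at 243 CPM in naive NK-like cells and at 244, 207 and 218 CPM in the others. Nearly all of the signal of Rpl30l1 therefore came from 1 library. The promoter window printed above for Rpl30l1 holds no run of 5 or more C or T.

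Rps18l1, a copy of Rps18, was at 12.4 CPM in naive B-like cells and at 38.2, 50.3 and 32.8 CPM in CS, NEVLP2 and NEVLPcty. NK-like cells had 13.1, 44.1, 28.6 and 32.4 CPM. It differed from the members' median in 6 of the 8 classes, and naive endothelial-like cells held 0 counts. Rps4x-ps9, listed as a pseudogene of the small-subunit gene Rps4x, was at 77.6, 168, 169 and 152 CPM in B-like cells, and it was also higher than the members' median in 6 classes. Whether reads of the parents were shared with these copies was not tested.

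**Figure D3:**
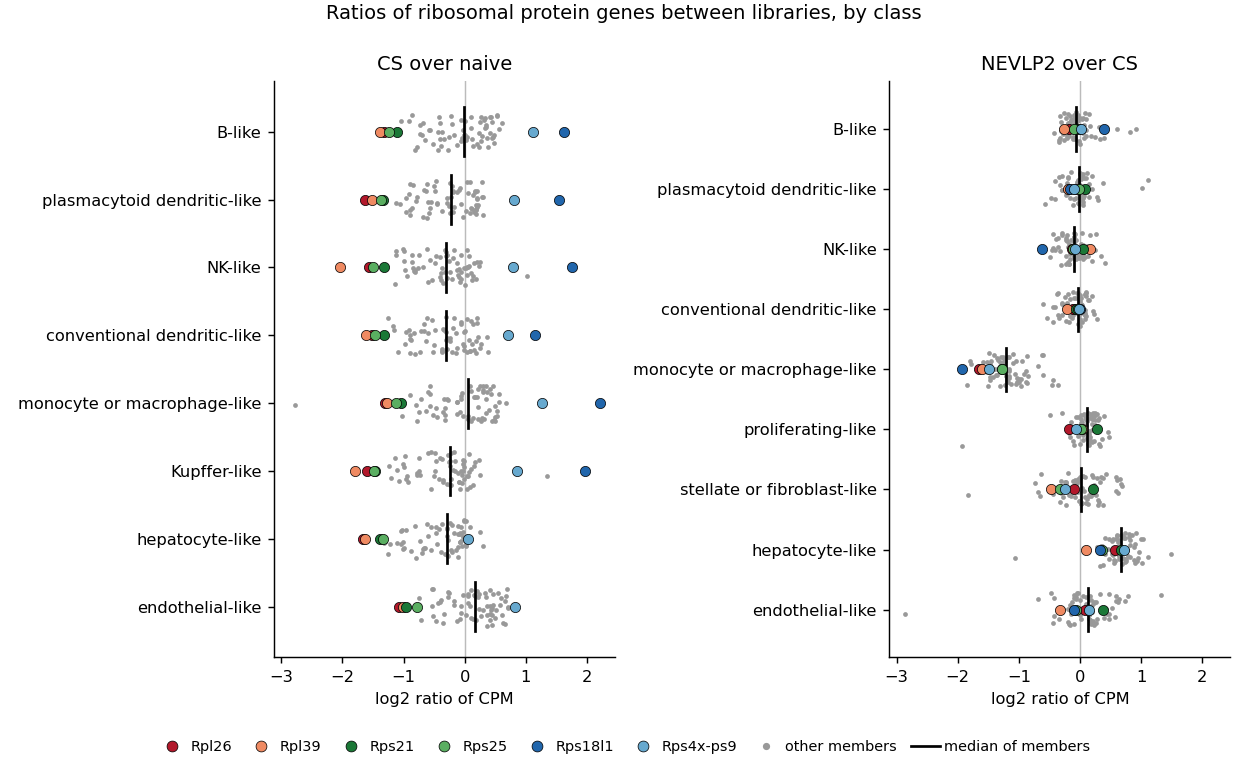
Log2 ratio of CPM for each measured member (points) by class (rows), CS over naive on the left and NEVLP2 over CS on the right; black bars are the members' medians, and points with 0 counts in either library and Rpl30l1, which lies far to the left, are not drawn. The members spread widely on the left, with Rpl26, Rpl39, Rps21 and Rps25 at the low end of each class, and lie close together on the right.

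Perfused liver (NEVLP2) compared with naive liver gave a similar picture, and by the 2-fold rule more members and more of all genes stood apart. The share was lower in 6 of 8 classes, with a median log2 ratio of -0.26. Hepatocyte-like cells, higher in NEVLP2 when pooled, were lower in cluster 3, the one both libraries shared. Since CS and NEVLP2 are set against the same naive library, this repeats its values and is no second observation. Of 66 members measured in all 8 classes, 18 were lower in every class (27.3%, against 7.28% of all genes) and 0 were higher in every class (against 20% of all genes). By the 2-fold rule, 8 of the 74 members tested were lower than the members' median and 2 were higher, against 6.83% and 20.9% of all genes. Rpl26 and Rps25 were lower in 8 of 8 classes, Rpl39 in 7, Rpl30l1 in 6, and Rpl32 and Rps21 in 4 each. Rpl31 and Rps4y2 were lower in 3 each, and Rps18l1 and Rps4x-ps9 were higher in 5 and 3. Rpl32, a large-subunit protein, was at 2464 CPM in naive B-like cells and at 1362, 1191 and 1542 in CS, NEVLP2 and NEVLPcty. Neutrophil-like cells had a share 1.97-fold lower in NEVLP2 (212 cells) than in naive (79 cells). Their median share per cell, 2.26% in naive and 1.46% in NEVLP2, lay closer together.

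Between perfused and cold-stored liver (NEVLP2 over CS), the shares of most classes differed little, and the clearest differences were in hepatocyte-like and in monocyte or macrophage-like cells. The median log2 ratio over 9 classes was -0.0066, with 4 classes higher and 5 lower. Hepatocyte-like cells had a share 1.627-fold higher in NEVLP2 (1.614 to 1.639). In them 72 of 73 members were higher in NEVLP2, against 69.1% of all genes, and the median log2 ratio was 0.67 for the members and 0.37 for all genes. The name covers mostly cluster 3 in CS and mostly cluster 11 in NEVLP2. Within cluster 3 the shares were 5.16%, 3.82%, 4.63% and 4.56% from naive to NEVLPcty, and in cluster 11 they were 6.59% in NEVLP2 and 8.03% in NEVLPcty. Perfused cells of the cluster that all 4 libraries shared were thus above CS and below naive.

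Hepatocyte-like cells held Rps2, a small-subunit protein at the mRNA entry channel, at 1862 and 1647 CPM in naive and CS and at 3286 and 3552 CPM in NEVLP2 and NEVLPcty. Rplp0 was at 1085, 1103, 1877 and 2051 CPM. Both perfused libraries were above both others for these genes. Only 4 of the 73 members reached 2-fold, against 23.9% of all genes, and the largest ratio was that of Rpl13a, a large-subunit protein that can leave the ribosome to silence inflammatory mRNAs, which was at 38.8 CPM in CS and 108 in NEVLP2. Rpl26 had 266 CPM in CS and 398 in NEVLP2 and so stayed under its naive level of 843 CPM.

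Monocyte or macrophage-like cells had a share 2.209-fold lower in NEVLP2 than in CS. All 73 measured members were lower, against 67.7% of all genes, and 57 of them by 2-fold or more, against 36%. The median log2 ratio was -1.21 for the members and -0.55 for all genes. The naive and CS cells of this name lay in clusters 22 and 24 and those of NEVLP2 and NEVLPcty in cluster 14. The shares were 12.6% and 11.97% in cluster 22 and 18.8% and 18.0% in cluster 24 for naive and CS, and 7.32% and 8.52% in cluster 14 for NEVLP2 and NEVLPcty. No cluster of this name had enough cells on both sides of the comparison, so cell state and library cannot be told apart there.

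By the 2-fold rule, Rps4y2 alone differed from the members' median between NEVLP2 and CS. It was lower in 4 of 9 classes, against 24% of all genes by the same rule, and 0 members were higher, against 12.1%. All genes were set against the members' median here too. In endothelial-like cells the median log2 ratio was 0.13 for the members and -0.925 for all genes. This class held 23727768 UMIs in CS and 2095433 in NEVLP2. Genes entered with at least 50 counts in both libraries together, so genes of low level could enter through CS alone. How far this lowered the values for all genes was not tested. Rps4y2 is a paralog of the X-linked small-subunit gene Rps4x, and RefSeq places it on chromosome 4. Endothelial-like cells had 126 CPM in naive (22 counts) and 198 in CS (4699 counts), against 27.2 in NEVLP2 (57 counts) and 39.9 in NEVLPcty (502 counts). Stellate or fibroblast-like cells had 159 CPM in CS, 44.9 in NEVLP2 and 32.9 in NEVLPcty. Both perfused libraries were under CS in both classes. The endothelial-like cells of CS were nearly all in cluster 0 and those of NEVLP2 and NEVLPcty mostly in clusters 6 and 13. Stellate or fibroblast-like cells of CS were mostly in cluster 28, and those of NEVLP2 and NEVLPcty mostly in clusters 7 and 15. No cluster of either name had enough cells in both CS and NEVLP2, so cell state and library cannot be told apart there. In cluster 21, which is unnamed and led by the vascular genes Vwf and Selp, Rps4y2 was at 314 CPM in CS, 80.8 in NEVLP2 and 103 in NEVLPcty. Of 71 members measured in all 9 classes, 0 were higher and 0 were lower in every class, against 12.7% and 7.85% of all genes. With at least 200 counts required, or with cells chosen by their own marker transcripts, 0 members met the rule.

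With IL-10 and TGF-β in the perfusate (NEVLPcty over NEVLP2), the ribosomal protein share was higher in 7 of 9 classes. The ratio was 1.216 (1.209 to 1.223) in hepatocyte-like cells, 1.212 (1.209 to 1.215) in conventional dendritic-like cells, 1.204 (1.197 to 1.211) in monocyte or macrophage-like cells and 1.097 in plasmacytoid dendritic-like cells. Endothelial-like cells had 1.08, stellate or fibroblast-like cells 1.039 and B-like cells 1.022. NK-like cells (0.951) and proliferating-like cells (0.859, from 40 and 38 cells) were lower over the pooled UMIs. The direction turned for NK-like cells within each of their clusters: cluster 10 had 12.02% in NEVLP2 and 12.46% in NEVLPcty, and cluster 23 had 16.91% and 17.75%. The thinned medians of NK-like cells were 12.4% and 12.8%. The clusters of hepatocyte-like cells went in different directions. Cluster 11 had 6.59% in NEVLP2 and 8.03% in NEVLPcty, and cluster 3 had 4.63% and 4.56%. The median log2 ratio was 0.11. It was 0.059 when mitochondrial, hepatocyte and erythroid marker UMIs were left out of the denominator and 0.26 when the median over cells was used.

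In several classes most members lay on the same side. In hepatocyte-like cells, pooled over their clusters, 73 of 73 were higher in NEVLPcty, against 53.4% of all genes. In conventional dendritic-like cells these were 71 of 75, against 64.9%, and in monocyte or macrophage-like cells 70 of 73, against 67%. In NK-like cells 34 of 72 were higher, against 65.8%. The members' median log2 ratios were 0.30, 0.31, 0.30 and -0.03 in these classes, beside 0.04, 0.18, 0.23 and 0.19 for all genes. In proliferating-like cells 13 of 71 were higher, against 64.1%. The largest single ratio was 1.95-fold higher, for Rps19bp1 in proliferating-like cells. By the 2-fold rule against the members' median, 0 of 73 members differed in 3 or more classes, against 4.67% of all genes higher and 4.36% lower. Of 71 members measured in all 9 classes, 10 were higher in each (14.1%, against 5.92% of all genes) and 0 were lower in each (against 2.54%). The 10 were Rpl4, Rpl26, Rpl27, Rpl35, Rpl36, Rpl36a, Rpl37, Rpl37a, Rpl41 and Rps27. Of these, Rpl26, Rpl36, Rpl36a, Rpl37, Rpl37a, Rpl41 and Rps27 were also among those lower in CS than in naive in every class. That group held 25 of the 71 members measured in every class of its comparison (35.2%). The overlap was not tested. In hepatocyte-like cells, Rpl41 was at 3338 CPM in naive, 1663 in CS, 2459 in NEVLP2 and 3316 with the cytokines. Mitochondrially encoded genes made up 1.444% of the UMIs of hepatocyte-like cells in NEVLP2 and 0.279% in NEVLPcty.

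Some members differed between classes rather than between libraries. Rpl31, a large-subunit protein near the tunnel exit, took 1.56%, 0.876%, 0.637% and 0.788% of the ribosomal protein UMIs of plasmacytoid dendritic-like cells from naive to NEVLPcty. The median class of the same libraries had 0.509%, 0.295%, 0.317% and 0.321%. In CPM, Rpl31 was at 3109, 1499, 1085 and 1472 in plasmacytoid dendritic-like cells and at 1122, 542, 536 and 547 in B-like cells. Plasmacytoid dendritic-like cells were above B-like cells in all 4 libraries, and naive was the highest library in both classes. Since this choice of members used these values, they are a description.

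Hepatocyte-like cells differed in 4 members. Rps27l, a p53-inducible paralog of Rps27, took 0.955%, 1.24%, 1.12% and 0.968% of their ribosomal protein UMIs in naive, CS, NEVLP2 and NEVLPcty, against 0.169%, 0.257%, 0.254% and 0.212% in the median class. In B-like cells it took 0.046%, 0.034%, 0.063% and 0.042%. Rpl36al, an expressed paralog of Rpl36a, took 1.21%, 1.53%, 1.13% and 1.18% in hepatocyte-like cells, against 0.544%, 0.542%, 0.507% and 0.518% in the median class. Rps19bp1 took 0.124%, 0.160%, 0.192% and 0.192%, against 0.034%, 0.049%, 0.064% and 0.063%. In CPM, Rps27l was at 493, 474, 694 and 731 in hepatocyte-like cells, and the cholangiocyte-like cells of NEVLP2, which line the bile ducts, had 693. As parts of the ribosomal protein UMIs, Rps27l, Rpl36al and Rps19bp1 were above the median class in hepatocyte-like cells of all 4 libraries. The ribosomal protein share of hepatocyte-like cells was low, so these parts do not rank them by CPM. Rps4y2, the other member, took 0.0471%, 0.0786%, 0.0231% and 0.0329% of their ribosomal protein UMIs, against 0.0077%, 0.0381%, 0.0148% and 0.011%, and the difference reached 2-fold in 3 of the 4 libraries.

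**Figure D4:**
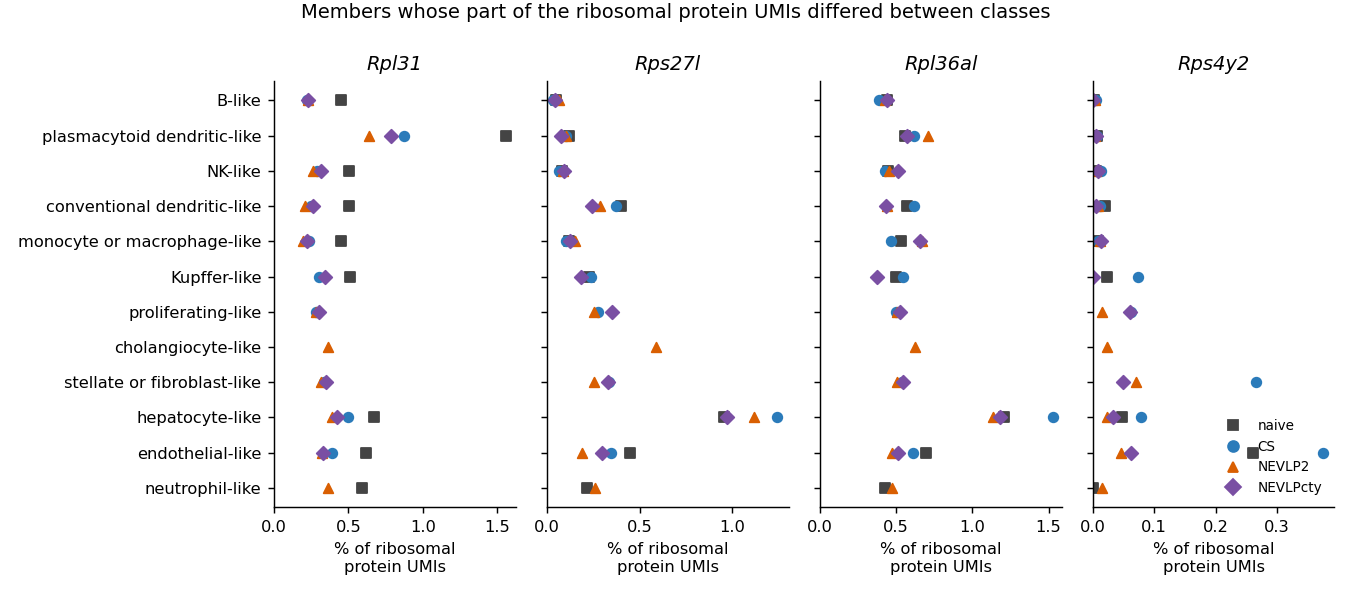
Percentage of the ribosomal protein UMIs of a class (horizontal axis) taken by Rpl31, Rps27l, Rpl36al and Rps4y2, by class (rows); each symbol is 1 library. Rpl31 lies highest in plasmacytoid dendritic-like cells, Rps27l and Rpl36al in hepatocyte-like cells, and Rps4y2 in the endothelial-like and stellate or fibroblast-like cells of CS.

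The remaining paralogs and copies had levels from near 0 to those of the abundant members. Rpl3l, known as the striated-muscle paralog of Rpl3, was detected mainly in plasmacytoid dendritic-like cells, with 42.1, 23.4, 50.3 and 54.4 CPM from naive to NEVLPcty. These rested on 59, 60, 219 and 53 counts. B-like cells had 5.53 to 14.5 CPM. Rpl3 itself was at 2460, 2827, 2217 and 2566 CPM in plasmacytoid dendritic-like cells, so the order of the libraries was not that of Rpl3l. Rpl22l1, the paralog of Rpl22, was at 816, 519, 684 and 800 CPM in B-like cells. It was lower in CS than in naive in all 8 classes, 1.258-fold to 2.155-fold.

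Rps9l1 followed the abundant members: in B-like cells it was at 3348, 4323, 4609 and 4150 CPM, and in hepatocyte-like cells at 834, 844, 1213 and 1306 CPM. In neutrophil-like cells it was at 3093 CPM in naive and 1917 in NEVLP2, beside 2063 and 999 CPM for Rplp0, although Rplp0 had more UMIs over all non-T cells. Rps10l1 was at 1763, 1482, 1486 and 1521 CPM in B-like cells. Rpl7l1, a paralog of Rpl7 in ribosome assembly, stayed at 13.1 CPM or less in every named class and library. Rplp0l1 (244 UMIs), Rps19l2 (153), Rpl10l (122), Rps15al4 (111) and Rpl35al1 (101) were too low to compare by class.

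The genes that build and use ribosomes were set beside the ribosomal proteins in lists for elongation and other TOP mRNAs (10 genes), initiation (24 of 28 listed were matched), ribosome biogenesis (38 of 39), mTORC1 and its brakes (17) and mitochondrial ribosomal proteins (76). For CS over naive, the members' class medians had a median log2 ratio of -0.24. Elongation and other TOP genes had 0.13, initiation 0.11, biogenesis 0.06, mTORC1 0.25 and mitochondrial ribosomal proteins 0.14. The median over all genes was 0.10. The mTORC1 list lay above this level, the other lists near it and the ribosomal proteins below it. Mitochondrially encoded genes were below it too, at -0.30, with a positive median in 0 of 8 classes. Ribosomal proteins under other symbols, with 2 of 3 listed genes measured, had -0.06 and a positive median in 3 of 8. All genes had a positive median in 7 of 8 classes, initiation and mTORC1 genes in 8 of 8, and the ribosomal proteins in 2 of 8. In B-like cells, for example, the elongation factor gene Eef2 was at 1636 CPM in naive and 2198 in CS, and Tpt1, another TOP gene, at 8053 and 8958. Eef1a1 was lower in CS, at 1957 and 1561 CPM.

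For NEVLP2 over CS, initiation genes had a positive median in 9 of 9 classes, with a median of 0.41, and biogenesis genes in 6 of 9, with a median of 0.40. In endothelial-like cells the median of 38 biogenesis genes was -0.10, while their summed part of the UMIs was 0.2725% in NEVLP2 and 0.15% in CS. In the other classes with a negative biogenesis median, the sum was lower in NEVLP2 too. Mitochondrial ribosomal proteins had a positive median in 1 of 9, with a median of -0.66, while the cytosolic members stood at -0.0071. All genes had a positive median in 1 of 9 classes, with a median of -0.12. In hepatocyte-like cells, 23 of 32 measured biogenesis genes were 2-fold or more higher in NEVLP2 and 0 were 2-fold lower, with a median log2 ratio of 1.45, against 23.9% of all genes higher. Of 24 initiation genes, 13 were 2-fold or more higher, with a median of 1.10. Hepatocyte-like cells were mostly of cluster 3 in CS and mostly of cluster 11 in NEVLP2, and the lists were not compared within a cluster. Ddx21, an RNA helicase of ribosomal RNA processing, was at 8.75 CPM in CS and 53.25 in NEVLP2. Wdr43, part of the machinery that processes the small-subunit precursor, was at 12.9 and 98.5 CPM, and Ncl (nucleolin) at 214 and 592 CPM. Eif4g2, an initiation factor, was at 134 and 568 CPM. Naive hepatocyte-like cells had 152 CPM of Ncl, so both the stored and the perfused library were above naive for this gene. These genes are examples chosen after their values were seen.

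For NEVLPcty over NEVLP2, the median over all genes was 0.19, with a positive median in 7 of 9 classes. The medians were 0.0035 for elongation and other TOP genes, 0.0034 for initiation, -0.07 for biogenesis, 0.15 for mTORC1 and 0.16 for mitochondrial ribosomal proteins, beside 0.12 for the ribosomal protein members. The list of mTORC1 and its brakes, with 6 to 15 of 17 genes measured in a class, had a positive median in 9 of 9 classes. Its summed part of the UMIs was lower in NEVLPcty in endothelial-like cells (0.138% against 0.173%) and in stellate or fibroblast-like cells (0.125% against 0.165%). In the other classes this sum was higher in NEVLPcty. Mitochondrial ribosomal proteins and the ribosomal protein members had a positive median in 7 of 9 classes each. In hepatocyte-like cells, Ncl was at 592 CPM in NEVLP2 and 426 in NEVLPcty, and the ribosomal protein genes were higher in NEVLPcty.

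**Figure D5:**
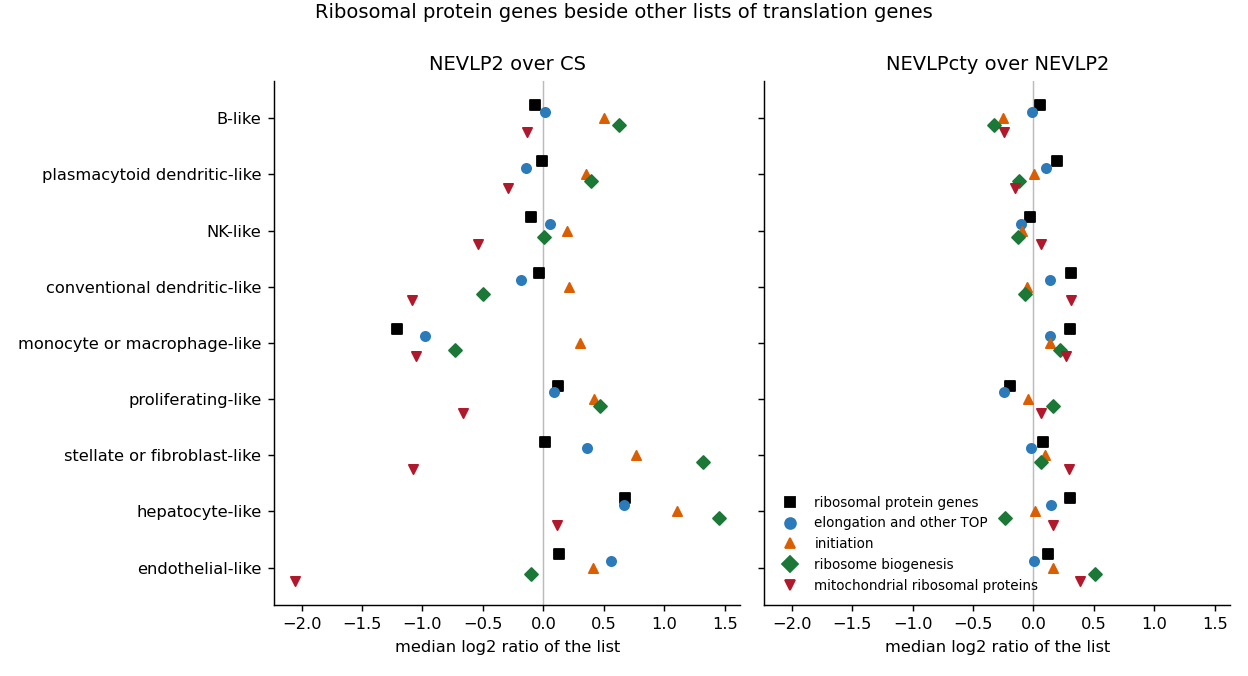
Median log2 ratio (horizontal axis) of the ribosomal protein genes and the genes of 4 other lists in each class (rows), NEVLP2 over CS on the left and NEVLPcty over NEVLP2 on the right; each symbol is 1 list. In hepatocyte-like cells on the left, biogenesis lies at 1.45, initiation at 1.10 and the ribosomal proteins at 0.67, and on the right the lists lie closer together.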

How the data were processed

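Gene by cell counts of 4 single-cell libraries of rat liver were used as the authors deposited them: whole-number UMI counts in filtered 10x matrices. The submitters' processing notes name Cell Ranger 2.1.1 and the headers of all 4 matrices name version 6.0.0. No source used here states the genome build.

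Features of 1 symbol were summed. Barcodes under 200 genes, under 500 UMIs or over 20% mitochondrial UMIs were left out, and Scrublet calls were removed (scanpy 1.11.5). The libraries were clustered together without ribosomal protein genes (2000 variable genes, 30 components, 15 neighbours, Leiden resolution 1, leidenalg 0.10.2). Clusters were named from 19 marker lists. Counts were summed by class and library where a class had at least 20 cells. CPM are UMIs of a gene per 1000000 UMIs of the class. Ratios were computed for members with at least 50 counts in both libraries together, with 95% exact binomial or conditional intervals. A member differed where its ratio was 2-fold or more from the members' median and the interval excluded that median, and it was counted when this held in at least 3 classes in 1 direction. No p-values were computed, since each group is 1 library. The ratio script was tested on simulated counts.

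Named were the paralogs, copies and other genes with at least 50 counts, up to 8 differing members per direction and comparison, members whose part in 1 class differed 2-fold from the median class in at least 3 libraries, and the 6 most abundant, of which 1 is not reported here. The members and lists were chosen with earlier results of these data known, and Rpl41 was added to the fixed list after the files were seen.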

Additional observations from a re-analysis of the deposited data

How the results depend on the processing

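No paired analysis was possible because each group is 1 library. The median over classes kept its sign in each comparison under the alternatives run, and single classes did not always. For NEVLPcty over NEVLP2, the share was higher in 7 of 9 classes pooled, in 8 of 8 by transcripts and in 8 of 9 by the median over cells, where NK-like cells turned to higher (11.77% against 8.639%). For NEVLP2 over naive, it was higher in 2 of 8 classes and in 0 of 8 single clusters, and for CS over naive in 2 of 8 classes and in 1 of 10 single clusters. The median log2 share ratio, CS over naive, was -0.0997 in cells of 2000 to 8000 UMIs, -0.17 in cells taken by their own marker transcripts and -0.13 with the median over cells. For NEVLP2 over naive it was -0.0687, -0.39 with ribosomal protein genes in the clustering, -0.39 (-0.3873) with each library clustered alone, -0.20 with the median over cells, -0.31 without mitochondrial, hepatocyte and erythroid marker UMIs and -0.21 over single clusters, an alternative chosen after seeing the data. For NEVLP2 over CS these were -0.0355 (2000 to 8000 UMIs), -0.0325 (clustering with the genes) and -0.0443 (without marker UMIs). For NEVLPcty over NEVLP2 they were 0.16 with the highest doublet scores removed, 0.08 with the genes in the clustering, 0.13 with libraries alone, 0.21 by transcripts, 0.26 over cells, 0.0882 without mitochondrial UMIs, 0.0592 without marker UMIs and 0.14 over single clusters. At 1.5-fold, 20 members differed for CS over naive, 26 for NEVLP2 over naive, 4 for NEVLP2 over CS and 1 for NEVLPcty over NEVLP2, and at 3-fold 2 and 1 differed in the first 2 comparisons. For NEVLP2 over CS, 2 differed with at least 20 counts, 0 with at least 200 and 0 by transcripts. The causes of these shifts were not tested. Of 230 alternative values for the share of 1 class, 35 stayed within counting error and 7 moved by over 1.5 times, among them NK-like cells of NEVLP2 (8.64% as the median over cells), conventional dendritic-like cells of NEVLP2 (6.19% in 29 cells of 2000 to 8000 UMIs) and proliferating-like cells of NEVLPcty (5.92% with the library clustered alone). Of 1142 values for named members, 859 stayed within counting error. Doublets could not be removed from NEVLPcty, transcript lengths were not used, and 1 library per group limits every comparison.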
